A study of Mus musculus with 12 samples.

Results

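Small RNA counts that fell on the strand opposite to an annotated microRNA precursor were described across cardiomyocytes and nonmyocytes of the mouse heart. Each row of the small RNA table is one arm window of a precursor, marked as lying on the annotated strand or opposite to it. The table holds 850 rows of 517 precursors, and 68 rows of 53 precursors were opposite. From these, 13 rows in a stretch of chromosome 12 and at the miR-486 locus of chromosome 8 were set aside by position, which left 55 opposite-strand rows of 45 precursors. The rule uses strand and position and no measured value, but members were chosen with earlier results of these data known. The cells came from hearts of 3 wild-type female FVB/NJ mice, an inbred strain, aged 12 weeks. Hearts were digested with collagenase by Langendorff perfusion, and gravity filtration parted cardiomyocytes, the beating muscle cells, from nonmyocytes. Cardiomyocyte RNA was taken at once, while nonmyocytes were first cultured into what the labels call largely fibroblasts, with 2 passages in the protocol and a P1 culture in the cell type label. Cell type and culture therefore cannot be told apart. Each fraction gave 3 small RNA libraries, and 3 libraries of polyadenylated RNA that were used for the host genes.

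A microRNA is cut from a hairpin RNA, and the reverse complement of a hairpin can often fold into a hairpin as well. Both strands of a locus may therefore carry an annotated microRNA, and an annotation that places a precursor on only one of them assigns the reads of the other strand as opposite. A mature microRNA binds messenger RNAs mainly through its seed, bases 2 to 8, and lowers their output. Among the loci met here, miR-378a lies inside Ppargc1b, a coactivator gene of mitochondrial metabolism, miR-1a is a muscle microRNA, and the let-7 family is expressed in most adult tissues.

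At 13 of the 45 precursors a microRNA gene is annotated on the opposite strand in GENCODE or RefSeq. The precursors were looked up by transcript identifier, without converting coordinates, and 43 precursors matched on chromosome and strand. The gene on the other strand was then found by overlap of positions within those annotations. The table gives windows and counts without the sequences of the reads, so the microRNA named at each row is the one annotated at that locus. For 4 abundant loci the mature sequence of the opposite-strand microRNA follows, from RefSeq (GRCm38.p6), with the seed in capitals. They are shown because these loci hold most of the opposite-strand counts beside miR-378a, whose sequence is not printed here.
miR-191-5p: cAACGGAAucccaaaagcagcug
let-7f-5p: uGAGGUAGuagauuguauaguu
let-7e-5p: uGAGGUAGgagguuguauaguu
miR-24-3p: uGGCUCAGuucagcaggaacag
The let-7f-5p and let-7e-5p sequences share one seed, and the other seeds differ from it and from each other. In each of these 4 precursors the more abundant row was the one on the side of the printed mature arm. Seen from the annotated precursor the arms are reversed, so that a 3p window faces the 5p arm of the microRNA opposite and a 5p window faces the 3p arm. The windows of the table do not have the exact spacing of the RefSeq arms: the starts of the let-7e pair lie 48 bases apart in the table and 45 bases apart in RefSeq.

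Total counts differed widely between libraries. The cardiomyocyte libraries held 412739, 3062706 and 6311625 counts and the nonmyocyte libraries 1255622, 549924 and 83170, always given here in the order of replicates 1 to 3 with cardiomyocytes first. Nonmyocyte library 3 stood apart: miR-133a, a cardiomyocyte microRNA, held 26356 CPM there (counts scaled to the library total), against 262 and 462 in the other nonmyocyte libraries and 122693 to 197993 in cardiomyocytes. The 10 annotated-strand rows of the cardiomyocyte list together held 122928 to 199248 CPM in cardiomyocytes and 270 to 26981 in nonmyocytes. Small RNA CPM in this paragraph is scaled to library totals unless stated. CPM of polyadenylated RNA is scaled by the trimmed mean of M values (TMM), described below. In polyadenylated RNA the 5 listed cardiomyocyte genes held 98284 to 131854 CPM against 689 to 932, and the 5 fibroblast genes 268 to 373 against 10978 to 12877. The 4 endothelial genes were lower in the nonmyocyte cultures, at 40.9 to 53.4 CPM, than in the cardiomyocyte fraction, at 257 to 577. In small RNA, scaled to library totals, the endothelial list overlapped, at 1606 to 6120 CPM in nonmyocytes and 2670 to 22244 CPM in cardiomyocytes. On the TMM scale its miR-126 5p row did not overlap, at 712 to 2762 CPM in nonmyocytes and 3200 to 34892 CPM in cardiomyocytes. Nor did its miR-126 3p row, at 134 to 692 CPM against 1230 to 8518 CPM. The macrophage and leukocyte genes were higher in nonmyocytes (57.6 to 70.7 against 15.1 to 19.2 CPM). The small RNA rows of that list were lower there (14.5 to 60.1 against 63.0 to 77.5 CPM). The smooth muscle and pericyte list was higher in nonmyocytes in both assays, with small RNA scaled to library totals. The 3 blood genes held 359, 51.6 and 7.999 CPM in cardiomyocytes and 1.40 to 3.29 CPM in nonmyocytes. In small RNA the 3 rows of the blood list held 196, 47.7 and 17.4 CPM in cardiomyocytes and 14.3, 12.7 and 409 CPM in nonmyocytes, so that nonmyocyte library 3 stood apart there too. None of the markers in these lists was at 0 in every library. Their part in the results was not tested, and values without nonmyocyte library 3 are given beside the changes of the most abundant row of each locus. In such bulk samples fewer cells of a type and less RNA per cell cannot be told apart.

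Opposite-strand rows held 9.90%, 12.1% and 9.51% of all small RNA counts in cardiomyocytes and 5.28%, 5.51% and 8.73% in nonmyocytes. The means were 10.5% ± 1.39 and 6.51% ± 1.93 (SD, n = 3 each), and the fractions did not overlap. Exact 95% intervals, which cover counting error only, spanned 9.48% to 9.53% in the largest library and 8.54% to 8.92% in the smallest. Without nonmyocyte library 3 the nonmyocyte mean was 5.40%. The direction rested on 1 row. Without the single row at chromosome 18 start 61557491 the shares were 0.870%, 1.86% and 1.72% in cardiomyocytes and 5.19%, 5.40% and 7.99% in nonmyocytes. The other 54 rows together thus took a share of the counts 4.17 times as large in nonmyocytes as in cardiomyocytes, and the ratio ran from 3.46 to 4.77 as each library was left out in turn. On the same scale the median row of all 343 tested was 3.73 times as high in nonmyocytes, so the 4.17 is near the background of the table. The nonmyocyte mean of these 54 rows was 6.19% with library 3 and 5.29% without it. Of the counts on the 13 rows set aside by position, most were at miR-486 in all but nonmyocyte libraries 1 and 2. There the chromosome 12 row opposite AC121784.1 on the 5p arm held 2611 and 1772 counts, and the main miR-486 row 788 and 571. The 13 rows would have added 29.4%, 16.8% and 8.98% in cardiomyocytes and 0.293%, 0.450% and 1.19% in nonmyocytes. Among the 3 cardiomyocyte libraries the blood list too was highest in library 1 and lowest in library 3, in both assays. In small RNA it was higher still in nonmyocyte library 3, at 409 CPM, where the rows set aside held 1.19%. The part of blood in these shares was not tested.

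**Figure D1:**
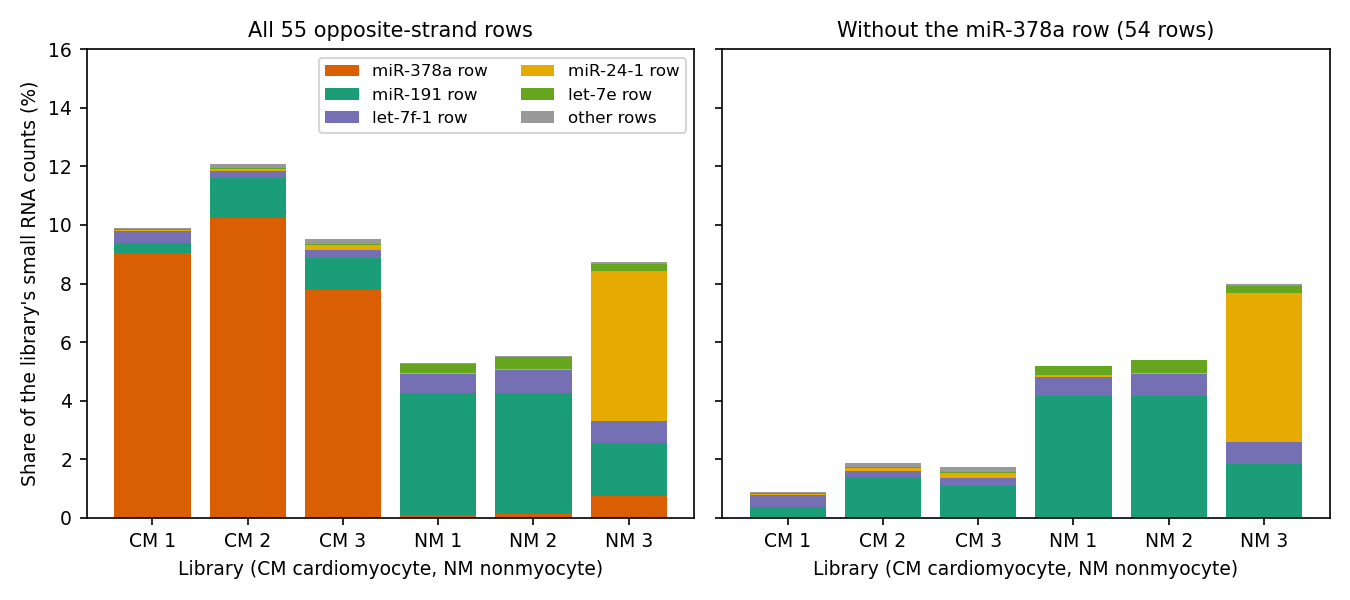
Share of each library's small RNA counts on opposite-strand rows (percent, stacked by row), with all 55 rows on the left and without the miR-378a row on the right, for 3 cardiomyocyte (CM) and 3 nonmyocyte (NM) libraries. With all rows the cardiomyocyte libraries are higher (9.51% to 12.1% against 5.28% to 8.73%). Without the miR-378a row they are lower, and miR-24-1 makes up most of the bar of nonmyocyte library 3.

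The counts sat in few rows. The chromosome 18 row held 75.7% of all opposite-strand counts over the 6 libraries, and the 7 rows with 1000 counts or more held 99.9%. Of the other 48 rows, 38 had under 10 counts in all and 22 had a single count. By library, 17, 33 and 36 of the 55 rows had a count in cardiomyocytes and 25, 19 and 12 in nonmyocytes, the same order as the total counts. A row with no count can still hold up to 36.1 CPM (by library total) in the smallest library and 0.475 in the largest, the limits that 3 counts set. The rows were 18 to 26 bases long with a median of 22, and 28 lay on the 5p arm and 27 on the 3p arm. They were spread over 17 chromosomes, 25 in an intron, 12 in an exon and 18 in no gene of the deposited annotation.

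Most counts sat at loci with an annotated microRNA on the other strand, but not every such locus had many. The 5 precursors with an opposite microRNA gene and no annotated-strand row in the table (9 rows) held 97.7% of the opposite-strand counts. Another 8 precursors with an opposite microRNA gene (11 rows) held 2.30%. Nearly all of that was at AC130827.1 and Mir1b, with 19249 and 6403 opposite counts. The rest of the 8 had 1 to 5 opposite counts each, such as Mir126 with 1 beside 170967 on the annotated strand. The 24 precursors with annotated-strand rows and no opposite microRNA gene (27 rows) held 313 counts, or 0.0281%, and the remaining 8 rows held 10 counts. Outside the regions set aside, 410 precursors of the table matched GENCODE and had no opposite microRNA gene: their opposite-strand counts numbered 320 beside 7988745 on the annotated strand, a share of 0.00401%. Abundant microRNAs were among those with no opposite-strand row at all, such as miR-22 with 2499351 annotated-strand counts. At the 20 matched precursors with an opposite microRNA gene, 80.1% of the counts were opposite, most of these at miR-378a. Of the 20, 13 had an opposite-strand row, against 30 of the 410 without such a gene.

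Rows with enough counts were compared between the fractions with edgeR, in which 11 of the 55 opposite-strand rows passed the filter on low counts. The log2 fold changes are cardiomyocyte minus nonmyocyte with the standard error after the ± sign. That error was derived as the absolute log2 fold change divided by the square root of the edgeR F statistic. At an adjusted p under 0.05, 3 rows were higher in cardiomyocytes and 2 were lower, while 6 were not called. Of all 343 rows tested 19.0% were called higher and 33.8% lower, so that 52.8% were called in either direction. The median log2 fold change was 0.35 over the 11 rows and -0.23 over all rows. The fractions did not overlap in 5 of the 11, against 57.7% of all rows. The labels do not say whether libraries of a fraction came from separate hearts or cultures, so the p-values measure the spread between these libraries.

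The scale of the comparison mattered. The libraries were scaled by the trimmed mean of M values (TMM), whose factors were 0.513 to 0.603 in cardiomyocytes and 1.62 to 1.90 in nonmyocytes. Scaled to library totals instead, the median of all rows was -1.90, all 11 opposite-strand rows moved down, and 2 opposite-strand rows were called higher and 5 lower. Shares of the library total, as given above, are on that second scale.

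**Figure D2:**
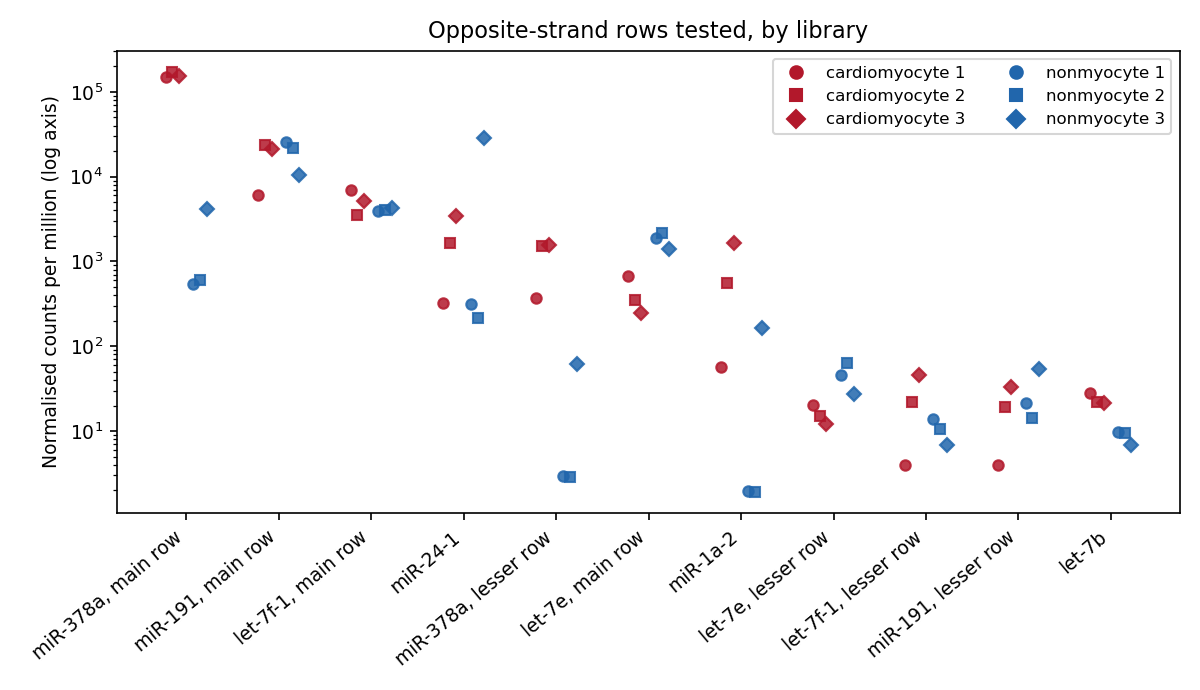
TMM-scaled CPM (log axis) of the 11 opposite-strand rows tested, 1 point per library, with cardiomyocytes in red and nonmyocytes in blue. The miR-378a rows are high in all 3 cardiomyocyte libraries, and nonmyocyte library 3 (blue diamond) lies above the other nonmyocyte libraries at miR-378a, miR-24-1 and miR-1a-2.

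The dominant row lay opposite the precursor AC116595.1 (chr18:61557491-61557512, mm9, 22 bases), where Mir378a is annotated on the other strand. Its counts were 37253, 313050 and 491284 in cardiomyocytes and 1114, 634 and 618 in nonmyocytes. That is 9.03%, 10.2% and 7.78% of the cardiomyocyte libraries and 0.0887%, 0.115% and 0.743% of the nonmyocyte libraries. All cardiomyocyte libraries lay above all nonmyocyte libraries, and nonmyocyte library 3 was the highest of its group. On the TMM scale cardiomyocytes stood at 157999 ± 12472 CPM and nonmyocytes at 1784 ± 2088 CPM (SD, n = 3 each). The log2 fold change was 6.47 ± 1.11 (edgeR adjusted p = 0.0026), and 8.43 without nonmyocyte library 3 (edgeR adjusted p = 7.9e-06). It was called under all 14 alternatives run, with values from 4.84 to 8.43.

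The companion row of AC116595.1 on the 3p arm (chr18:61557529-61557550, mm9) had 91, 2754 and 5090 counts in cardiomyocytes and 6, 3 and 9 in nonmyocytes. It rose by a log2 fold change of 6.20 ± 1.48 (edgeR adjusted p = 0.012), and by 8.83 without nonmyocyte library 3. It made up 0.244% to 1.44% of the counts of the pair, depending on the library. No annotated-strand row of this precursor is in the table. Both rows lay in an exon of the lncRNA gene n277522 and in an intron of Ppargc1b, each on the strand of the reads. In polyadenylated RNA Ppargc1b held 156 ± 2.19 CPM in cardiomyocytes and 1.77 ± 0.217 CPM in nonmyocytes, a log2 fold change of 6.45 ± 0.21 (edgeR adjusted p = 1.2e-10). For n277522 cardiomyocytes stood at 11.6 ± 3.10 CPM and nonmyocytes at 0.136 ± 0.159 CPM, with a log2 fold change of 6.30 ± 0.65 (edgeR adjusted p = 2.0e-06), and 7.86 without nonmyocyte library 3. In polyadenylated RNA 31.6% of 14734 genes were called higher in cardiomyocytes and 32.1% lower, 63.7% in all. These libraries keep no strand and the lncRNA gene lies within the Ppargc1b locus, so their reads cannot be told apart where they overlap.

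The let-7e locus was the one lower in cardiomyocytes. Its main row lay opposite the precursor AC165361.1 (chr17:17967330-17967350, mm9, in no annotated gene), on the side of the let-7e-5p sequence printed above. Counts were 167, 646 and 798 in cardiomyocytes and 3843, 2267 and 209 in nonmyocytes, or 0.0405%, 0.0211% and 0.0126% against 0.306%, 0.412% and 0.251% of each library. The fractions did not overlap. The TMM-scaled level fell by 2.11 ± 0.53 on the log2 scale (edgeR adjusted p = 0.013), and by 1.86 without nonmyocyte library 3 (edgeR adjusted p = 0.029). The call was lost without cardiomyocyte library 2 (edgeR adjusted p = 0.062) and without nonmyocyte library 1 (0.18, with a log2 fold change of -1.37).

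The lesser let-7e row (chr17:17967378-17967398, mm9), on the let-7e-3p side of the hairpin, had 5, 27 and 39 counts against 94, 67 and 4. Its level fell by 1.65 ± 0.55 on the log2 scale (edgeR adjusted p = 0.038). That call was lost in 7 of 14 alternatives, among them leaving out any library other than cardiomyocyte library 1. The lesser row made up 1.88% to 4.66% of the pair, the highest such share among the 5 loci with a pair of abundant or companion rows. At the let-7f-1 and miR-191 loci the lesser row made up at most 0.879% and 0.524% of the pair.

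The rows at miR-191 and let-7f-1 were not called between the fractions. The miR-191 row lay opposite the precursor CT010508.1 (chr9:108470652-108470672, mm9) and held 1491, 42843 and 69375 counts in cardiomyocytes and 52437, 22792 and 1520 in nonmyocytes. As shares of the library these were 0.361%, 1.40% and 1.10% against 4.18%, 4.14% and 1.83%, which do not overlap. On the TMM scale the levels were 17010 ± 9600 and 19340 ± 8069 CPM (SD, n = 3 each) and did overlap. The log2 fold change was -0.19 ± 0.65 (edgeR adjusted p = 0.83), and -0.23 without nonmyocyte library 3. Scaled to library totals it was -1.83 (edgeR adjusted p = 0.039), which is 0.07 above the median of all rows on that scale. Of the nonmyocyte share outside chromosome 18, this row was the main part in libraries 1 and 2. It lay in exons of the lncRNA genes n293315 and n423929 on the strand of the reads, whose polyadenylated RNA was at 0 to 0.746 CPM and at 0 in every library, respectively.

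The let-7f-1 row lay opposite the precursor AC147162.1 (chr13:48633260-48633279, mm9), in an intron of the lncRNA gene n279848. Its counts were 1723, 6432 and 16682 in cardiomyocytes and 8015, 4268 and 621 in nonmyocytes, or 0.417%, 0.210% and 0.264% against 0.638%, 0.776% and 0.747% of the library. The log2 fold change was 0.35 ± 0.40 on the TMM scale (edgeR adjusted p = 0.50) and -1.28 scaled to library totals (edgeR adjusted p = 0.030), 0.62 above the median of all rows there. Its direction thus depended on the scaling. On the TMM scale it was 1.02 without nonmyocyte library 1 (edgeR adjusted p = 0.22) and 0.73 without nonmyocyte library 3 (0.30). let-7f-5p is made from a second locus too, Mirlet7f-2, whose 5p row lies on the annotated strand. The let-7f-1 row held 0.336, 0.338 and 0.345 times the counts of that row in cardiomyocytes and 0.404, 0.434 and 0.435 times in nonmyocytes. The ratio varied little and did not overlap between fractions. How the authors placed reads that match both loci is not given in the sources used here, and these values are uncertain for that reason.

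**Figure D3:**
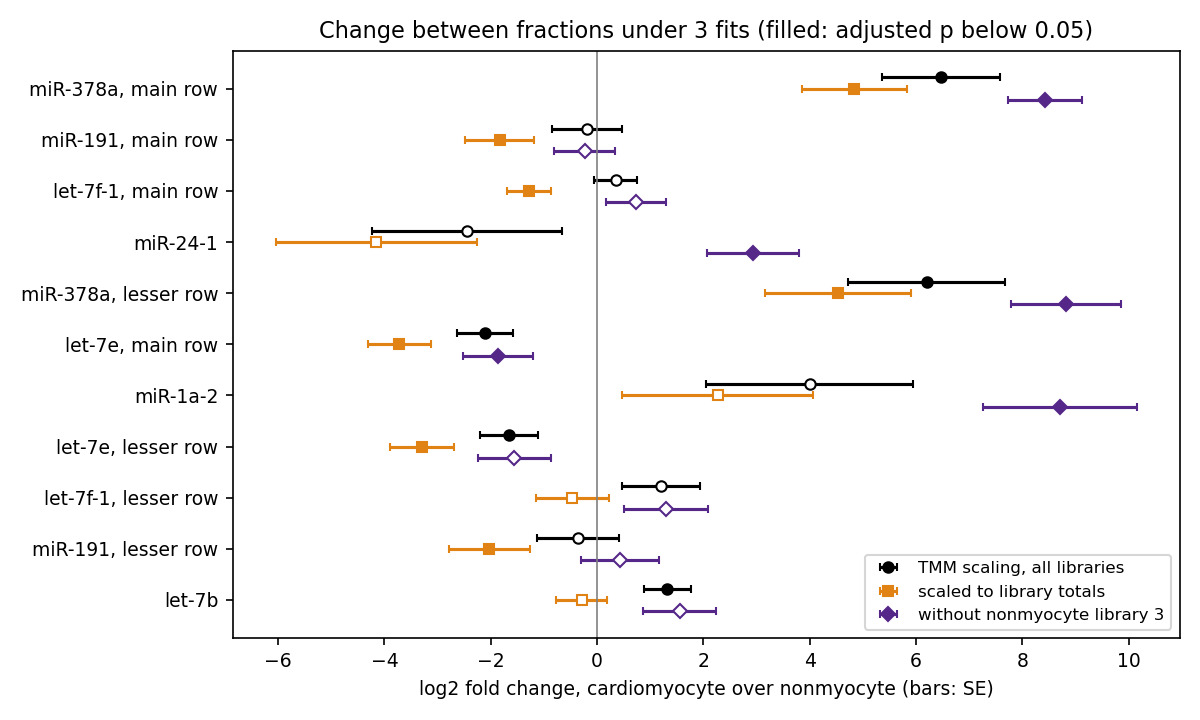
log2 fold change (cardiomyocyte over nonmyocyte, bars are SE) of the 11 opposite-strand rows tested, with TMM scaling, with scaling to library totals and without nonmyocyte library 3; filled symbols have an adjusted p under 0.05. The miR-378a rows stay above 0 in all 3 fits (4.53 to 8.83), library totals move every row down, and miR-24-1 changes sign without nonmyocyte library 3.

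The miR-24-1 row turned on a single library. It lay opposite AC130827.1 (chr13:63402550-63402571, mm9), a precursor that GENCODE names Mir3074-1, in an intron of 2010111I01Rik on the strand of the reads. Counts were 81, 2980 and 11028 in cardiomyocytes and 647, 224 and 4244 in nonmyocytes. The last value was 5.10% of nonmyocyte library 3, against 0.0515% and 0.0407% in the other nonmyocyte libraries and 0.0196% to 0.175% in cardiomyocytes. With all libraries the log2 fold change was -2.44 ± 1.78 (edgeR adjusted p = 0.29). Without nonmyocyte library 3 it was 2.93 ± 0.87 (edgeR adjusted p = 0.013), the other way round.

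The other copy of miR-24, Mir24-2, was also highest in nonmyocyte library 3 on its annotated-strand 3p row, by less. That row had 14, 792 and 2867 counts in cardiomyocytes and 241, 74 and 170 in nonmyocytes. On the TMM scale these were 56.3, 436 and 886 CPM against 119, 70.9 and 1154 CPM. The miR-24-1 row held 5.79, 3.76 and 3.85 times as many counts in cardiomyocytes and 2.68, 3.03 and 25.0 times as many in nonmyocytes, so that library 3 was far from the rest. These ratios too depend on how reads that match both loci were placed, which is not given. The host gene 2010111I01Rik, which encodes an aminopeptidase, held 51.5 ± 6.41 against 26.9 ± 2.44 CPM in polyadenylated RNA. Its log2 fold change was 0.94 ± 0.19 (edgeR adjusted p = 0.00064), and 0.25 scaled to library totals (edgeR adjusted p = 0.20). Only 8 counts of AC130827.1 were on the annotated strand, beside 19249 opposite.

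The miR-1a-2 row lay opposite Mir1b (chr18:10785484-10785504, mm9), in an intron of Mib1, a ubiquitin ligase gene of Notch signalling on the strand opposite to the reads. It had 14, 1015 and 5343 counts in cardiomyocytes and 4, 2 and 24 in nonmyocytes. As shares these were 0.00339%, 0.0331% and 0.0847% against 0.000319%, 0.000364% and 0.0289%, and nonmyocyte library 3 overlapped the cardiomyocytes. The log2 fold change was 4.001 ± 1.94 (edgeR adjusted p = 0.13). Without nonmyocyte library 3 it was 8.71 ± 1.45 (edgeR adjusted p = 0.00044), from 6 counts in the remaining nonmyocyte libraries.

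Mir1b itself had 7 counts on the annotated strand, all in cardiomyocyte library 3. The other copy, Mir1a-1, had 57, 2454 and 13634 counts on its annotated-strand 3p row in cardiomyocytes and 7, 2 and 36 in nonmyocytes. The rows of both miR-1a loci were high in the same libraries. How reads that match both loci were placed is not given, so the rows are not independent evidence on each locus. The log2 fold change of the Mir1a-1 row was 4.70 ± 1.97 (edgeR adjusted p = 0.082). Mib1 fell in cardiomyocytes in polyadenylated RNA, at 11.9 ± 7.63 against 26.6 ± 7.40 CPM, with a log2 fold change of -1.10 ± 0.43 (edgeR adjusted p = 0.042). That call was lost without cardiomyocyte library 2, nonmyocyte library 2 or nonmyocyte library 3 (edgeR adjusted p = 0.055, 0.12 and 0.10).

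The highest row at a precursor with no opposite microRNA gene was at Mirlet7b (chr15:85537809-85537830, mm9), opposite its 3p arm. It had 7, 40 and 69 counts in cardiomyocytes and 20, 10 and 1 in nonmyocytes. The TMM-scaled level was 23.8 ± 3.75 in cardiomyocytes against 8.74 ± 1.70 CPM with no overlap, and the log2 fold change came to 1.32 ± 0.45 (edgeR adjusted p = 0.040). That call was weak: the row was tested in 11 alternatives and called in 1, and scaled to library totals the value was -0.29. Without nonmyocyte library 3 it was 1.55 (edgeR adjusted p = 0.076).

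Within the Mirlet7b locus the comparison does not depend on the scaling of libraries. Opposite-strand counts were 1.27%, 0.838% and 1.08% of the locus in cardiomyocytes and 0.457%, 0.372% and 0.143% in nonmyocytes, with means of 1.06% ± 0.217 and 0.324% ± 0.162 (SD, n = 3 each). All cardiomyocyte libraries were above all nonmyocyte libraries. The means differed by 0.737 percentage points, and by 0.647 without nonmyocyte library 3. The exact two-sided permutation p was 0.1, the smallest that 3 against 3 allows, and 0.15 after Benjamini-Hochberg adjustment over the 3 precursors tested. The annotated-strand arms of let-7b were not called, with log2 fold changes of -0.48 ± 0.46 for the 5p arm and -0.49 ± 0.52 for the 3p arm (edgeR adjusted p = 0.42 and 0.47).

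The reverse complement of the let-7b hairpin resembles another family member at this place. Its best match to let-7a-5p has 3 mismatches. The lines below give let-7a-5p with its seed in capitals, and then that stretch of the reverse complement with the bases it shares in capitals.
let-7a-5p: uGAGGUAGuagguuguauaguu
reverse complement of the Mirlet7b hairpin: gaAGGcAGUAGGUUGUAUAGUU
Of 1005 RefSeq mouse hairpins, 9.45% hold a known mature microRNA in their reverse complement with up to 3 mismatches and 5.57% hold one without a mismatch. Of 27 member precursors with a RefSeq hairpin of their own, 10 and 8 did. The 8 without a mismatch all lie at loci where an opposite microRNA gene is annotated. Those matches follow from the annotation and are not a result of the counts. The table gives no reads, and none was compared with either sequence.

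**Figure D4:**
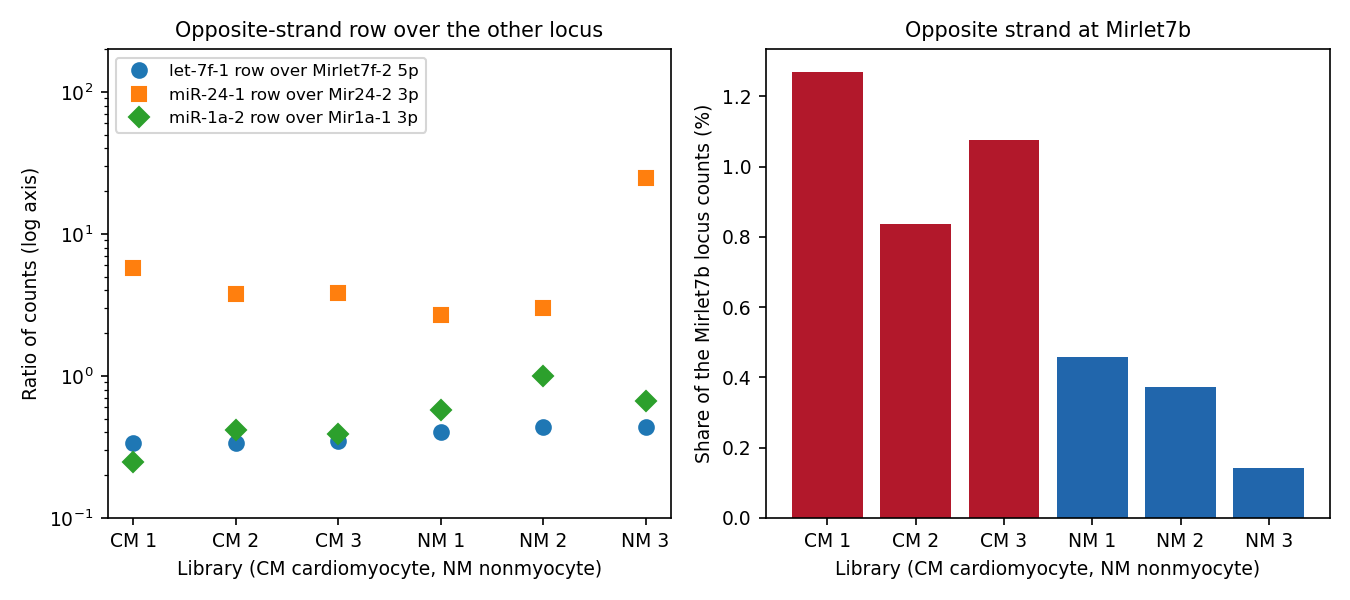
Left, counts of 3 opposite-strand rows divided by the counts of the row at the other locus of the same mature microRNA (log axis); right, opposite-strand share of all counts at Mirlet7b (percent), each by library (CM cardiomyocyte, NM nonmyocyte). The let-7f ratio stays between 0.336 and 0.435, miR-24 reaches 25.0 in nonmyocyte library 3, and the Mirlet7b share is higher in all cardiomyocyte libraries (0.838% to 1.27%) than in all nonmyocyte libraries (0.143% to 0.457%).

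Few of the low rows were seen in both fractions. Over the 55 rows, 27 were counted in cardiomyocytes only, 11 in nonmyocytes only and 17 in both. Of the 55, 22 had a single count, which can fall in only one fraction, and total counts differed widely between libraries. The split was not compared with that of all 850 rows and is not read as a difference between fractions. The row opposite Mir122a had 1, 12 and 39 counts in cardiomyocytes and none in nonmyocytes. In the nonmyocyte libraries 3 counts would be 2.39, 5.46 and 36.1 CPM by library total. The Mir122a row was 71.2% of the counts of its locus, which had 21 counts on the annotated strand, although no opposite microRNA gene is annotated there. miR-122 is known as a liver microRNA. Mir708 had 13 opposite and 20 annotated-strand counts, and Mir98, a let-7 relative, had 22 opposite counts beside 4187. At Mir1983 10 of 16 opposite counts came from nonmyocyte library 1.

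The annotated-strand rows of the same precursors gave the setting of these values. The table has 57 such rows in 32 of the 45 precursors, and 29 were tested. At an adjusted p under 0.05, 7 were higher and 4 lower in cardiomyocytes, beside 19.0% and 33.8% of all rows, with a median log2 fold change of 0.07. The loci at miR-378a, miR-191, let-7f-1 and let-7e had no annotated-strand row.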

How the data were processed

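The authors deposited whole-number counts per microRNA arm (small RNA) and per gene (polyadenylated RNA), with mm9 (NCBIM37) positions. Per the submitters' processing notes, the tools included edgeR, DESeq, HTSeq, Bowtie and TopHat 1.3.0, with no role stated. Per the labels, the TruSeq kit for small RNA was used. How reads matching several loci or carrying mismatches were counted is not given in the sources used here, and this can move counts between copies.

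The total line was dropped after a check that it equals the sum of the rows. Transcript identifiers were looked up in GENCODE vM21. Counts were tested with edgeR 4.0.16 (robust quasi-likelihood, filterByExpr minimum count 10, TMM, Benjamini-Hochberg, R 4.3.3), checked on simulated data. The simulation gave both fractions the same composition apart from planted changes, and less spread between small RNA libraries than the data. It therefore cannot test the scaling. CPM uses TMM-scaled library sizes, except that small RNA CPM of the marker lists and of the 3-count limits uses library totals. Shares have exact Clopper-Pearson 95% intervals. Figures were drawn with matplotlib 3.10.9. Alternatives were other scalings, no filter, DESeq2 1.42.0, limma voom 3.58.1, a replicate block, and leaving out each library or the 3 most abundant rows.

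Named rows are the 10 with the highest mean CPM, every called row, the chromosome 18 row and the 3 with the highest share of their locus. Mir122a, Mir708, Mir98, Mir1983 and miR-22 were named after their values were seen. Members and lists were chosen with earlier results of these data known. The biological coefficient of variation was 0.639 in small RNA.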

Additional observations from a re-analysis of the deposited data

How the results depend on the processing

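The ratio of the opposite-strand share, nonmyocyte over cardiomyocyte mean, was 0.620. It was 4.17 without the chromosome 18 row, which is also the most abundant one, 0.247 with the rows set aside by position, 0.423 with the 3 most abundant rows left out of the total, and 0.514 to 0.679 with each library left out. Rows lower in cardiomyocytes numbered 2 in edgeR, 5 scaled to library totals, 1 with a replicate block and 0 to 2 with each library left out. The 0 without cardiomyocyte library 2 and without nonmyocyte library 1 stood beside 1 and 0 rows at an unadjusted p under 0.05 in edgeR. Rows higher numbered 3, and 2 to 4 over all alternatives, not always the same rows. With each library left out, the log2 fold change ran from -0.47 to 0.60 for the main miR-191 row, from -0.82 to 0.43 for its lesser row and from -3.17 to 2.93 for miR-24-1. Signs turned at miR-191 without cardiomyocyte library 1 (0.21 main row, 0.05 lesser row), without nonmyocyte library 1 (0.60 main row) and without nonmyocyte library 3 (0.43 lesser row). At miR-24-1 they turned with limma voom (0.15) and without nonmyocyte library 3 (2.93). Library totals turned let-7f-1 (-1.28 main row, -0.46 lesser row) and let-7b (-0.29). The cause was not tested, but for library totals, which lower all rows. Higher rows made up 35.9% of all rows called, and 13.0% under library totals.

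With the replicate block, miR-1a-2 was called (log2 fold change 5.13, edgeR adjusted p = 0.0049), and the lesser let-7e row (-1.54, 0.096) and let-7b (1.40, 0.11) were not. Libraries of the same number deviated together weakly or not at all. Their correlations were 0.04, -0.10 and 0.25 in small RNA and 0.16, 0.05 and 0.10 in polyadenylated RNA. Such values cannot settle whether the numbers mark pairs, and the labels do not say, so the numbers are not read as pairs. In neither assay did every cardiomyocyte library correlate best with its own number. DESeq2 and limma voom called miR-1a-2 (adjusted p = 0.026 and 0.031) and not let-7b. Depth limits the 38 rows with under 10 counts, which cannot show a difference here.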
